A study of Sus scrofa with 12 samples.

Results

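CHCHD10, CHCHD2, CHCHD3 and CHCHD4 are nuclear genes for small mitochondrial proteins, and their RNA was followed here in pig blastocysts that had been vitrified, that is cooled rapidly to a glass-like state for storage, or kept fresh. The 4 genes were taken from the 31781 gene identifiers of the deposited table because their symbols place them in the CHCHD family and because CHCHD10 had been seen lower after vitrification. The set was thus selected on the FPKM of CHCHD10 in vitrified and fresh libraries, and every value of the 4 genes against fresh control below is a description without a test. FPKM is the number of sequenced fragments of a gene scaled to the length of the gene and to all mapped fragments of the library. The 4 groups were vitrification with 2 libraries analysed, vitrification I with 3, vitrification II with 3 and fresh control with 3. All were made from blastocysts of Sus scrofa that were parthenogenetic, which means that an egg was activated with no fertilisation, so no embryo in either the vitrified groups or the controls carried a paternal genome. The series title speaks of liquid helium, but the labels tie it to no group, and they give neither the difference between the 3 vitrified procedures nor the age and strain of the egg donors. Libraries were made by Smart-Seq2, which amplifies cDNA from very small inputs, and the labels name the blastocyst as the source of each while the protocol speaks of single sorted cells.

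CHCHD proteins share a fold held together by paired cysteines that are oxidised after the protein has entered the intermembrane space of the mitochondrion. CHCHD4, also called MIA40, is the receptor and oxidase that traps these proteins there, and the sulfhydryl oxidase GFER recharges it. CHCHD3, also called MIC19, is a subunit of MICOS, the complex that holds the necks of the cristae, the folds of the inner membrane. CHCHD10 and CHCHD2 are paralogs found near the cristae, and in humans mutations of CHCHD10 are known from motor neuron disease, frontotemporal dementia and myopathy, and mutations of CHCHD2 from Parkinson's disease. Human CHCHD2 also has a nuclear role in the transcription of a cytochrome c oxidase subunit. Blastocysts depend strongly on mitochondrial respiration, since the trophectoderm pumps ions to fill the cavity.

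The libraries held an FPKM above 0 for 11550 to 18527 genes, and their FPKM summed to 439650 to 591894. The share of FPKM from the 13 genes of the mitochondrial genome was 38.7% to 51.8% in vitrification, 43.8% to 64.3% in vitrification I, 16.9% to 22.1% in vitrification II and 37.6% to 43.9% in fresh control. Markers of trophectoderm, the outer layer of the blastocyst, were abundant as a sum: the 11 of 12 with an identifier summed to 6640 to 17030 FPKM in vitrification, 2751 to 6060 in vitrification I, 13736 to 22053 in vitrification II and 10495 to 15527 in fresh control. Most of that sum came from the keratins KRT8, at 1097 to 18589 FPKM, and KRT18, at 1088 to 4806 FPKM. No other marker of the list exceeded 376 FPKM (DAB2), and CDX2 reached at most 4.99 and HAND1 at most 0.170 FPKM. The 6 of 10 epiblast markers with an identifier, a list in which POU5F1 and SOX2 had none, summed to 17.3 to 43.5 FPKM in vitrification, 3.97 to 15.5 in vitrification I, 50.1 to 101.9 in vitrification II and 13.1 to 19.6 in fresh control. Of these, LIN28A alone reached 81.6 FPKM, and no other exceeded 16.7 FPKM (ESRRB). The 8 of 9 hypoblast markers summed to 22.7 to 93.6 FPKM in vitrification, 16.8 to 47.5 in vitrification I, 38.4 to 72.6 in vitrification II and 27.1 to 42.6 in fresh control, with FOXA2 at 0 throughout. Cumulus and granulosa markers (6 of 8 with an identifier) summed to at most 0.361 FPKM in any library, with PTX3 and HAS2 at 0, and leukocyte and erythroid markers (7 of 8) to at most 15.1 FPKM, with PTPRC and ALAS2 at 0. The mitochondrial share and the trophectoderm and epiblast sums thus moved with the groups, and their part in the results below was not tested. In such libraries, fewer cells that express a gene and less RNA of it per cell cannot be told apart.

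CHCHD10 had a lower FPKM in each of the 8 vitrified libraries than in any fresh library. It stood at 9.40 and 15.1 FPKM in vitrification, at 10.7, 15.8 and 8.79 in vitrification I and at 38.8, 19.3 and 14.3 in vitrification II, against 87.4, 112.4 and 79.8 FPKM in fresh control. The highest vitrified library, replicate 1 of vitrification II, and the lowest fresh library were still separated by 2.06-fold. How many of all genes separate groups without overlap was not counted, here or for the genes below. Among the 9411 genes that passed the filter on low values, CHCHD10 ranked in the top 15.9% to 32.2% of genes by FPKM in vitrified libraries and in the top 5.60% to 7.03% in fresh libraries.

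Group means of CHCHD10 were 12.3 ± 4.04 FPKM in vitrification (SD, n = 2), 11.8 ± 3.63 in vitrification I (SD, n = 3) and 24.1 ± 12.9 in vitrification II (SD, n = 3), against 93.2 ± 17.1 in fresh control (SD, n = 3). The vitrified means were 13.1%, 12.6% and 25.9% of the fresh mean, in the same order of groups. On the log2(FPKM + 1) scale, CHCHD10 differed from fresh control by -2.85 ± 0.45 after vitrification, by -2.91 ± 0.40 after vitrification I and by -2.01 ± 0.40 after vitrification II (difference ± SE from a limma fit to all genes). The typical gene did not sit at 0 in these comparisons: the median log2 difference from fresh control over the 9411 genes was 0.19 after vitrification, -0.06 after vitrification I and 0.62 after vitrification II. Relative to that median, CHCHD10 lay at -3.04 after vitrification, at -2.84 after vitrification I and at -2.63 after vitrification II. Of all genes tested against fresh control, limma called 1.25% higher and 0.117% lower in vitrification, 8.85% higher and 9.77% lower in vitrification I, and 24.6% higher and 1.09% lower in vitrification II (adjusted p under 0.05).

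**Figure D1:**
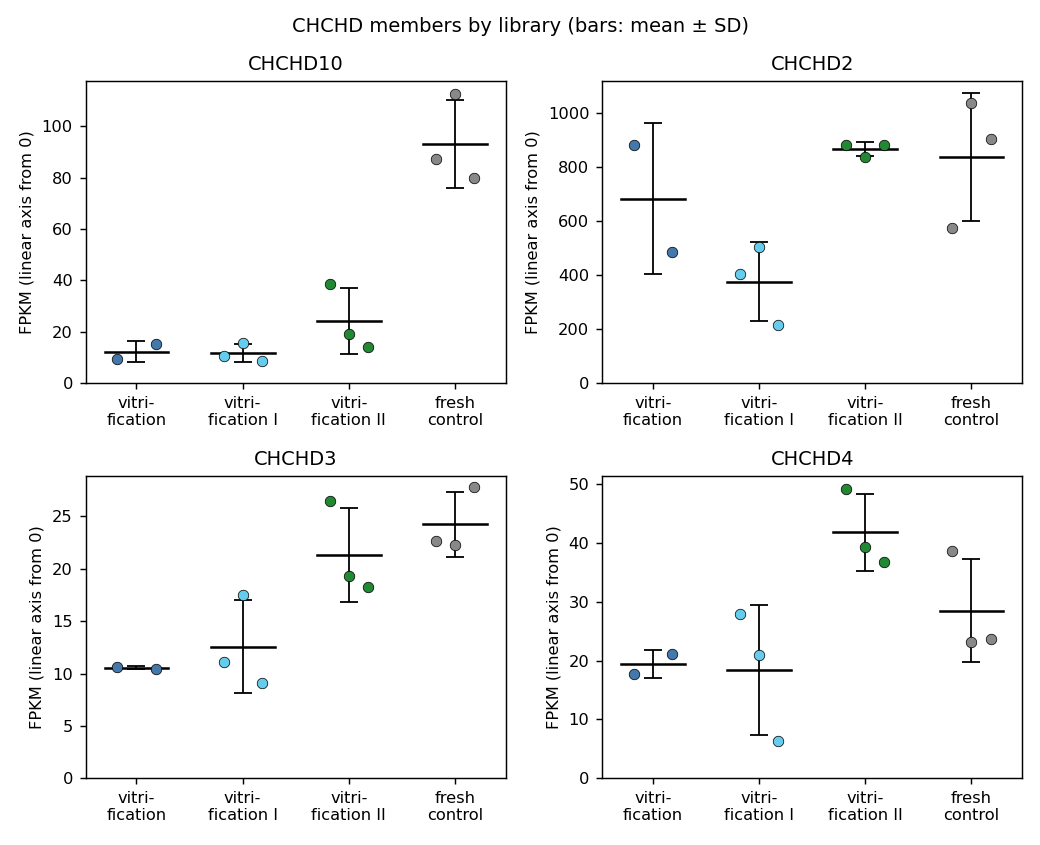
FPKM on a linear axis from 0 for CHCHD10, CHCHD2, CHCHD3 and CHCHD4, 1 panel per gene, with 1 point per library and bars for the group mean ± SD, the 3 vitrified groups on the left and fresh control on the right. CHCHD10 shows 8 vitrified libraries at 8.79 to 38.8 FPKM below 3 fresh libraries at 79.8 to 112.4 FPKM, while each of the other 3 genes overlaps with fresh control in at least 1 vitrified group.

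CHCHD2, the paralog of CHCHD10, was by far the most abundant of the 4 genes per unit of length, with a mean over all libraries 18.5 times that of CHCHD10. It stood at 879.6 and 485.2 FPKM in vitrification, at 404, 504 and 216 in vitrification I and at 881, 837 and 880.4 in vitrification II, against 575, 1035 and 904 FPKM in fresh control. Vitrification I was the group whose libraries all lay below the lowest fresh library, while vitrification and vitrification II overlapped with fresh control. CHCHD2 ranked in the top 0.638% to 2.09% of genes in vitrified libraries and in the top 0.808% to 1.08% in fresh libraries.

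The mean of CHCHD2 was 682 ± 279 FPKM after vitrification, 375 ± 146 after vitrification I and 866 ± 25.4 after vitrification II, against 838 ± 237 in fresh control, which makes 81.5%, 44.7% and 103% of the fresh mean. Its log2 difference from fresh control was -0.32 ± 0.42 after vitrification, -1.20 ± 0.38 after vitrification I and 0.09 ± 0.38 after vitrification II. Relative to the median gene these were -0.50, -1.14 and -0.53. The sign of the small differences in vitrification and in vitrification II turned round under another scaling: quantile normalization gave 0.13 in vitrification, and scaling to the FPKM outside the mitochondrial genome gave -0.050 in vitrification II.

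CHCHD3, the MICOS subunit, stood at 10.6 and 10.4 FPKM in vitrification, at 11.1, 17.5 and 9.11 in vitrification I and at 26.5, 19.3 and 18.3 in vitrification II, against 22.6, 22.2 and 27.8 FPKM in fresh control. The libraries of vitrification and of vitrification I were all below the lowest fresh library, and those of vitrification II overlapped with it. The means of 10.5 ± 0.145 FPKM after vitrification, 12.6 ± 4.41 after vitrification I and 21.4 ± 4.49 after vitrification II were 43.5%, 51.9% and 88.1% of the mean of 24.2 ± 3.13 in fresh control. Its log2 difference from fresh control was -1.12 ± 0.38 after vitrification, -0.94 ± 0.34 after vitrification I and -0.19 ± 0.34 after vitrification II, or -1.31, -0.87 and -0.81 relative to the median gene.

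CHCHD4, the import receptor, stood at 17.7 and 21.1 FPKM in vitrification, at 28.0, 21.0 and 6.40 in vitrification I and at 49.2, 39.3 and 36.7 in vitrification II, against 38.5, 23.2 and 23.7 FPKM in fresh control. Both vitrification libraries were below the fresh ones, and the other vitrified groups overlapped with fresh control. The means were 19.4 ± 2.38 FPKM after vitrification, 18.5 ± 11.02 after vitrification I and 41.7 ± 6.55 after vitrification II, or 68.0%, 64.8% and 146% of the mean of 28.5 ± 8.70 in fresh control. Replicate 3 of vitrification I, at 6.40 FPKM, was the lowest library, and without it the log2 difference of vitrification I from fresh control was -0.19, against -0.78 ± 0.45 with it. In vitrification the difference was -0.50 ± 0.50, and in vitrification II it was 0.56 ± 0.45, which became -0.030 under quantile normalization. Relative to the median gene the 3 differences were -0.69 after vitrification, -0.71 after vitrification I and -0.06 after vitrification II.

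A ratio of 2 genes within a library does not change when all values of that library are multiplied by 1 factor, though quantile normalization can change it. CHCHD10 amounted to 1.07% and 3.11% of CHCHD2 in vitrification, to 2.64%, 3.14% and 4.07% in vitrification I and to 4.40%, 2.31% and 1.62% in vitrification II, against 15.2%, 10.9% and 8.83% in fresh control. The vitrified and fresh ratios did not overlap. The ratio of CHCHD10 to CHCHD3 was 0.883 and 1.45 in vitrification, 0.963, 0.901 and 0.965 in vitrification I and 1.46, 1.00 and 0.781 in vitrification II, against 3.86, 5.06 and 2.86 in fresh control. In fresh libraries CHCHD10 thus outweighed CHCHD3 per unit of length, and in vitrified libraries their levels were of similar size.

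The ratio of CHCHD10 to CHCHD4 was 0.531 and 0.717 in vitrification, 0.382, 0.752 and 1.37 in vitrification I and 0.789, 0.491 and 0.388 in vitrification II, against 2.27, 4.84 and 3.36 in fresh control. The highest of the vitrified ratios came from the vitrification I library in which CHCHD4 was lowest. CHCHD3 relative to CHCHD4, a ratio without CHCHD10, was 0.601 and 0.496 in vitrification, 0.396, 0.835 and 1.43 in vitrification I and 0.539, 0.490 and 0.497 in vitrification II, against 0.587, 0.958 and 1.17 in fresh control, and here vitrified and fresh libraries overlapped. The ratios with CHCHD10 were set by the choice of that gene and stand as a description.

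**Figure D2:**
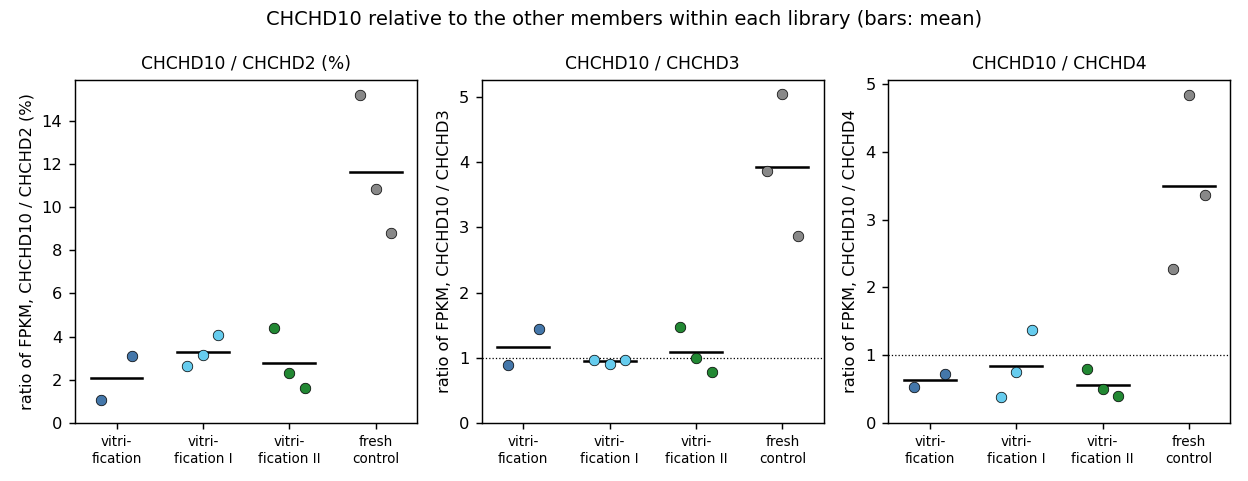
Ratio of the FPKM of CHCHD10 to that of CHCHD2 (in percent), CHCHD3 and CHCHD4 within each library, on linear axes from 0, with 1 point per library, a bar at the group mean, a dotted line at a ratio of 1 for CHCHD3 and CHCHD4, vitrified groups on the left and fresh control on the right. All 3 ratios separate vitrified from fresh libraries, for CHCHD2 with 1.07% to 4.40% against 8.83% to 15.2%.

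Between the vitrified groups, where fresh control was not part of the contrast, the levels of the 4 genes could be tested. All 4 lay higher in vitrification II than in vitrification I on the deposited scale, CHCHD3 not so under quantile normalization, and CHCHD2 and CHCHD4 passed the test (limma with Benjamini-Hochberg adjustment over 9411 genes, adjusted p under 0.05, two-sided). CHCHD2 was higher by 1.29 ± 0.38 on the log2 scale (95% interval 0.48 to 2.10, adjusted p = 0.0153), with 866 ± 25.4 FPKM in vitrification II and 375 ± 146 in vitrification I, and the groups did not overlap. CHCHD4 was higher by 1.34 ± 0.45 (95% interval 0.38 to 2.30, adjusted p = 0.0293), again with no overlap. In this comparison 34.7% of all genes tested were called higher and 3.75% lower, so that 2 of 4 members called higher is near that background. The median gene was itself higher by 0.68, which leaves CHCHD2 at 0.61 and CHCHD4 at 0.66 above it.

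Both calls depended on the scaling of the libraries and on single libraries, though not to the same degree. CHCHD2 kept its call under 16 of 19 alternatives, quantile normalization among them, and CHCHD4 under 10 of 19. Scaled to the FPKM outside the mitochondrial genome, CHCHD2 was higher by 0.65 (adjusted p = 0.119) and CHCHD4 by 0.73 (adjusted p = 0.254). Replicate 3 of vitrification I was the lowest of the 11 libraries for each of the 4 members. Without it the differences were 0.94 (adjusted p = 0.0679) for CHCHD2 and 0.75 (adjusted p = 0.125) for CHCHD4. The CHCHD4 call was also lost without replicate 1 (adjusted p = 0.0907), replicate 2 (adjusted p = 0.0621) or replicate 3 (adjusted p = 0.0518) of vitrification II. CHCHD10 was higher in vitrification II by 0.89 ± 0.40 (95% interval 0.04 to 1.75, adjusted p = 0.0907) and CHCHD3 by 0.75 ± 0.34 (95% interval 0.02 to 1.48, adjusted p = 0.0980), and neither passed. For CHCHD3 the sign turned under quantile normalization, to -0.082, and the test was passed without replicate 2 of vitrification I, with 1.00 (adjusted p = 0.0323).

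Against vitrification, vitrification II had log2 differences of 0.84 ± 0.45 for CHCHD10 (95% interval -0.12 to 1.79, adjusted p = 0.240), 0.41 ± 0.42 for CHCHD2 (-0.50 to 1.31, adjusted p = 0.555), 0.94 ± 0.38 for CHCHD3 (0.12 to 1.75, adjusted p = 0.135) and 1.06 ± 0.50 for CHCHD4 (-0.01 to 2.14, adjusted p = 0.189) in limma. None of the 4 passed, beside 5.05% of all genes called higher and 0.935% lower. An unadjusted p under 0.05 was found for 1 of 4, CHCHD3, and for 2548 of the 9411 genes tested. The median gene differed by 0.46.

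Vitrification I and vitrification were closest in CHCHD10, with a log2 difference of -0.06 ± 0.45 (95% interval -1.01 to 0.90, adjusted p = 0.953). That interval still spans about a log2 unit on either side, and the sign turned under quantile normalization (0.024) and under scaling outside the mitochondrial genome (0.15). CHCHD2 differed by -0.89 ± 0.42 (-1.79 to 0.02, adjusted p = 0.223), CHCHD3 by 0.19 ± 0.38 (-0.63 to 1.01, adjusted p = 0.817) and CHCHD4 by -0.28 ± 0.50 (-1.35 to 0.80, adjusted p = 0.789). In limma, 0 of 4 members passed, beside 1.21% of all genes called higher and 4.42% lower. An unadjusted p under 0.05 was found for 0 of 4 members, and for 2211 of the 9411 genes tested. The median gene differed by -0.26.

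**Figure D3:**
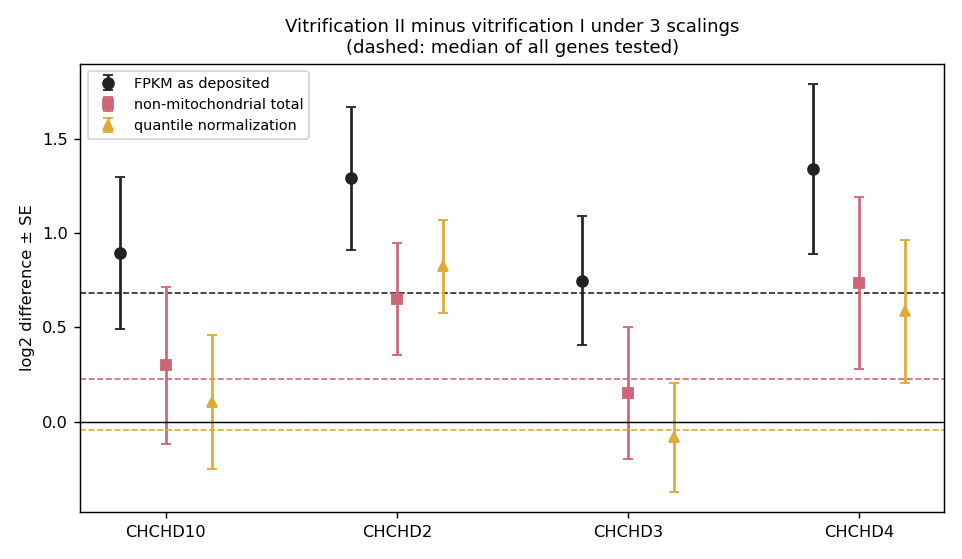
Log2 difference ± SE of CHCHD10, CHCHD2, CHCHD3 and CHCHD4 in vitrification II against vitrification I, under the deposited FPKM, scaling to the FPKM outside the mitochondrial genome and quantile normalization, with a dashed line at the median of all genes tested under each. CHCHD2 and CHCHD4 lie at 1.29 and 1.34 as deposited and at 0.65 and 0.73 outside the mitochondrial genome, and the median line moves with the scaling.

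The share of higher among called genes also moved with the scaling. In vitrification II against vitrification I, limma called 3261 genes higher and 353 lower as deposited, 1555 and 702 when scaled outside the mitochondrial genome, and 1276 and 1373 after quantile normalization. Against fresh control, vitrification II had 2319 higher and 103 lower as deposited, and 387 and 289 after quantile normalization. Vitrification I had 833 higher and 919 lower as deposited, and 1342 and 502 when scaled outside the mitochondrial genome. Vitrification had 118 higher and 11 lower as deposited, and 69 and 29 after quantile normalization. Against vitrification, vitrification I had 114 higher and 416 lower as deposited, 146 and 281 outside the mitochondrial genome and 292 and 312 after quantile normalization, and vitrification II had 475 higher and 88 lower as deposited, 42 and 57 outside the mitochondrial genome and 125 and 205 after quantile normalization.

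The order of levels over groups differed between genes. CHCHD10 was highest in fresh control, then vitrification II, vitrification and vitrification I, where fresh control alone was apart and each vitrified group overlapped with the next. CHCHD3 had the order fresh control, vitrification II, vitrification I and vitrification, with overlap between fresh control and vitrification II and between vitrification I and vitrification, but not between vitrification II and vitrification I. CHCHD2 and CHCHD4 were highest on average in vitrification II and lowest in vitrification I, with overlap between every pair of neighbours in that order except, for CHCHD4, fresh control and vitrification.

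The table held 3 more genes of the family: CHCHD1, a component of the small mitochondrial ribosomal subunit, CHCHD5, whose function is little known, and CHCHD6, also called MIC25, another MICOS subunit of this type. None of them passed the test against fresh control in limma. CHCHD1 averaged 23.6 ± 6.85 FPKM after vitrification, 19.5 ± 2.23 after vitrification I and 35.2 ± 9.95 after vitrification II, against 29.03 ± 6.89 in fresh control (adjusted p = 0.748, 0.309 and 0.605). CHCHD5 averaged 14.03 ± 6.70, 10.1 ± 3.13 and 25.3 ± 5.84 FPKM in the 3 vitrified groups in that order, against 14.1 ± 4.73 in fresh control (adjusted p = 0.978, 0.451 and 0.133). CHCHD6 averaged 23.5 ± 5.18, 12.8 ± 4.15 and 17.9 ± 2.89 FPKM, against 24.6 ± 8.05 in fresh control (adjusted p = 0.985, 0.108 and 0.440). At an unadjusted p under 0.05, 1 of the 3, in vitrification I against fresh control, passed, beside 3136 of the 9411 genes there. The adjusted calls stand beside the shares of all genes called that are given above with CHCHD10.

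Of these 3 genes, CHCHD5 was higher in vitrification II than in vitrification I, by 1.27 ± 0.39 (adjusted p = 0.0193 in limma), where CHCHD1 (adjusted p = 0.0890) and CHCHD6 (adjusted p = 0.313) did not pass. The CHCHD5 call was lost without replicate 3 of vitrification I (adjusted p = 0.0717) and without replicate 1 (0.0552) or replicate 2 (0.0766) of vitrification II. It was also lost under both other scalings.

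**Figure D4:**
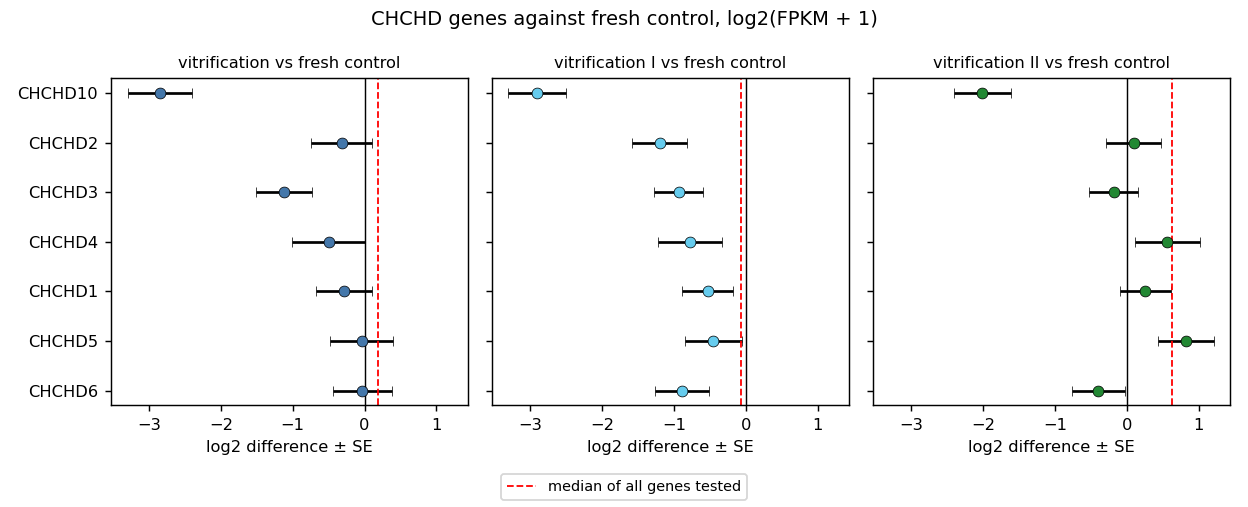
Log2 difference ± SE of the 7 CHCHD genes from fresh control in vitrification, vitrification I and vitrification II, 1 panel per vitrified group, with a line at the median of all 9411 genes. CHCHD10 lies at -2.85, -2.91 and -2.01, and the other 6 genes lie between -1.20 and 0.82 in the 3 panels.

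Genes with which the CHCHD proteins work were read as lists, from which the 4 members were left out and which share some genes. Over the 92 different genes tested, limma called 1 higher and 0 lower in vitrification against fresh control, beside 1.25% and 0.117% of all genes. In vitrification I it called 3 higher and 16 lower, beside 8.85% and 9.77% of all genes. In vitrification II it called 9 higher and 14 lower (11 of the 14 from the mitochondrial genome), beside 24.6% and 1.09% of all genes. In vitrification II against vitrification I it called 32 of the 92 higher and 12 lower, where 34.7% of all genes tested were called higher and 3.75% lower, so that the higher count is near that background and the lower count, 10 of it from the mitochondrial genome, above it. The counts of single lists are small, and most moved by more than 1.5 times when a library was left out, as given beside them. Their counts at an unadjusted p under 0.05 stand beside 1709 of all 9411 genes in vitrification against fresh control. In vitrification II against fresh control 3733 of the 9411 genes had such a p.

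Of the 10 MICOS genes and partners around CHCHD3, APOO (MIC26) was lower in vitrification I than in fresh control, with 72.1 ± 30.7 FPKM against 162.9 ± 23.2 and a log2 difference of -1.27 ± 0.38 (adjusted p = 0.0299, limma). APOOL (MIC27) was lower in vitrification II, with 105.7 ± 80.7 FPKM against 213 ± 42.7 in fresh control (-1.25 ± 0.44, adjusted p = 0.0492). These were the only genes of the list called against fresh control, beside 9.77% of all genes called lower in vitrification I and 1.09% in vitrification II. The APOO call was lost without replicate 2 or 3 of fresh control or replicate 3 of vitrification I, where the count was 0, and the count was 2 without replicate 2 of vitrification I. It was also lost under both other scalings, without a filter and in a fit of the 2 groups alone (adjusted p up to 0.116 over the 19 alternatives). The APOOL call was lost under 12 of 19 alternatives (adjusted p up to 0.220), among them leaving out replicate 2 or 3 of fresh control, either library of vitrification, replicate 1 of vitrification I or replicate 1 or 2 of vitrification II, where the count was 0, and the count was 2 without replicate 3 of vitrification I. IMMT (mitofilin), the core of the complex, had 45.8 ± 3.54 FPKM after vitrification, 42.2 ± 10.1 after vitrification I and 73.96 ± 9.08 after vitrification II, against 70.5 ± 13.2 in fresh control, and did not pass. In vitrification against fresh control limma called 0 of 10, and 2 of 10, both lower, had an unadjusted p under 0.05. The median of the list was -0.47 there, against 0.19 over all genes, -0.56 in vitrification I against -0.06, and 0.087 in vitrification II against 0.62.

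DNAJC11, a chaperone-like partner of MICOS, was higher in vitrification II than in vitrification I by 2.09 ± 0.44 (adjusted p = 0.00222, limma), with 16.03 ± 7.20 FPKM against 3.03 ± 1.68, and it passed under all 19 alternatives. SAMM50, the channel of the sorting machinery in the outer membrane, was the other MICOS partner called higher in that comparison, by 1.06 ± 0.39 (adjusted p = 0.0416). Its call was lost under 12 of 19 alternatives, with adjusted p up to 0.613, and the count of the list fell to 1 without replicate 2 or 3 of fresh control, replicate 1 or 3 of vitrification I or any 1 library of vitrification II. It was 4 without replicate 2 of vitrification I. The median of the list was 0.42, against 0.68 over all genes. Scaled to the total outside the mitochondrial genome, the list had 1 higher and 2 lower, with a median of -0.18. Quantile normalization also gave 1 higher and 2 lower, with a median of -0.29.

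The relay of CHCHD4 and its cysteine-rich substrates had 21 genes tested. GFER, the oxidase that recharges CHCHD4, was higher in vitrification II than in vitrification I, with 28.97 ± 3.78 FPKM against 3.02 ± 1.28, a difference of 2.94 ± 0.40 (adjusted p = 0.000128, limma) that passed under all 19 alternatives. Against fresh control, at 10.9 ± 4.00 FPKM, GFER was lower in vitrification I, at -1.57 ± 0.40 (adjusted p = 0.0143), and higher in vitrification II, at 1.37 ± 0.40 (adjusted p = 0.0213). The first of these calls was lost without replicate 3 of fresh control (0.0791) or replicate 1 of vitrification I (0.0649), and the second without replicate 2 of fresh control (0.108) or replicate 1 (0.0686) or 3 (0.0614) of vitrification II. Scaling outside the mitochondrial genome removed both. In vitrification GFER had 9.05 ± 4.77 FPKM.

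AIFM1, the flavoprotein that binds CHCHD4, had 39.7 ± 15.7 FPKM in vitrification II and 87.5 ± 27.3 in vitrification I, a difference of -1.15 ± 0.44 just past the threshold (adjusted p = 0.0497, limma) and opposite in sign to CHCHD4 and GFER. The call was lost, and with it the lower count of the list, without replicate 2 or 3 of fresh control, replicate 1 or 3 of vitrification I or replicate 1 or 2 of vitrification II. AIFM1 was chosen for mention after its value was seen. COX17, a copper carrier imported by CHCHD4, had 298 ± 79.2 FPKM after vitrification, 318 ± 107 after vitrification I and 368 ± 63.3 after vitrification II, against 423 ± 101 in fresh control, and passed in none of the 3 comparisons with fresh control in limma. The list as a whole had 0 genes called in vitrification against fresh control, with 2 of 21, both lower, at an unadjusted p under 0.05. It had 2 lower in vitrification I, beside 9.77% of all genes. That count was 1 without replicate 1 or 2 of fresh control or replicate 3 of vitrification I. It was 0 without replicate 3 of fresh control or replicate 1 of vitrification I. In vitrification II the list had 2 higher and 1 lower, beside 24.6% and 1.09% of all genes. That higher count was 0 without replicate 2 of fresh control or replicate 1 of vitrification II, and 1 without replicate 3 of fresh control, either library of vitrification, replicate 2 of vitrification I or replicate 2 or 3 of vitrification II. That lower count was 0 without any 1 library of fresh control or vitrification II or replicate 1 of vitrification I. Vitrification II against vitrification I had 6 of 21 higher and 1 lower, beside 34.7% of all genes called higher, so the higher count is not above that background, and 3 were higher without replicate 3 of vitrification I or replicate 1 of vitrification II and 4 without replicate 2 of vitrification II. Scaling to the total outside the mitochondrial genome gave 2 higher and 2 lower, and quantile normalization 1 higher and 3 lower. The median against fresh control was -0.39 after vitrification, -0.50 after vitrification I and 0.25 after vitrification II.

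**Figure D5:**
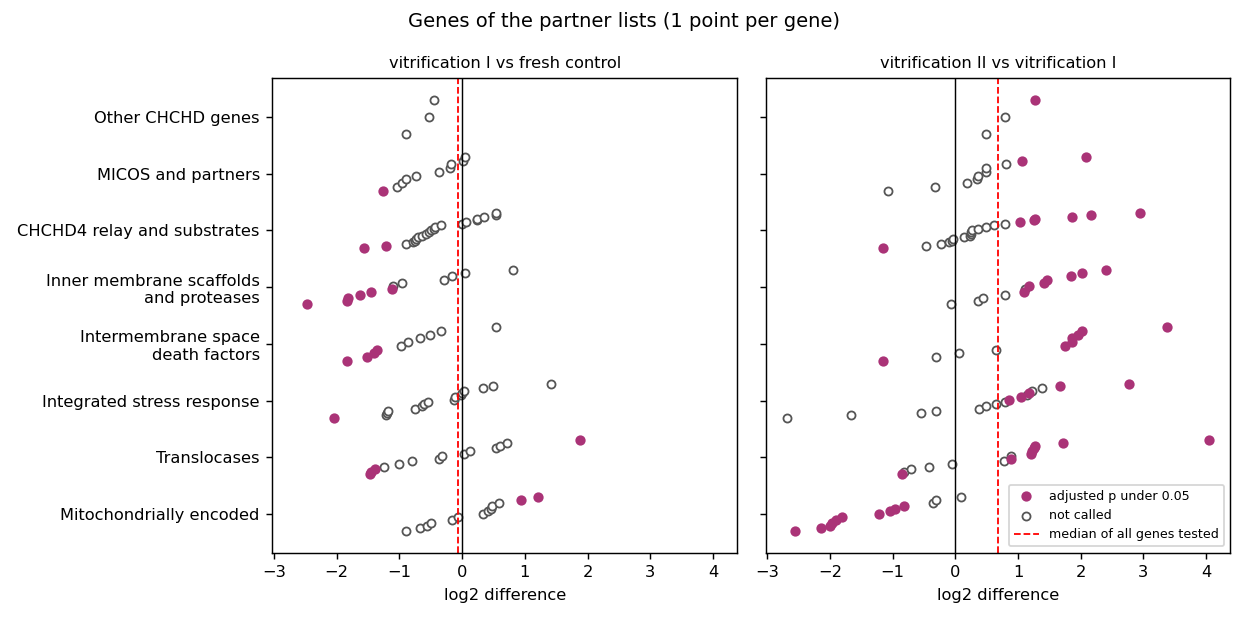
Log2 difference of each tested gene of the partner lists, 1 point per gene, for vitrification I against fresh control on the left and vitrification II against vitrification I on the right, with filled points for genes called at an adjusted p under 0.05 in limma and a dashed line at the median of all genes tested. The scaffold and protease list has 6 of 12 genes called lower on the left and 7 of 12 called higher on the right.

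The list of inner membrane scaffolds and proteases, 12 genes tested, is not of that membrane alone. It also holds the matrix proteins CLPP and C1QBP, and HTRA2, which the apoptosis list below shares. Of the 12, 6, these 3 among them, were called lower and 0 higher in vitrification I than in fresh control. Of all genes, 9.77% were called lower there. CLPP, a matrix protease, had 12.5 ± 8.03 FPKM in vitrification I, against 66.4 ± 3.67 in fresh control (-2.47 ± 0.43, adjusted p = 0.00198, limma). PHB2, a prohibitin that forms rings in the inner membrane, had 37.9 ± 12.9 FPKM in vitrification I, against 116 ± 17.7 in fresh control (-1.63 ± 0.36, adjusted p = 0.00718). C1QBP, a matrix protein, had 48.8 ± 13.4 FPKM in vitrification I, against 174 ± 43.2 in fresh control (-1.82 ± 0.39, adjusted p = 0.00627). These 3 passed under all 19 alternatives, and the count was 3 without replicate 3 of fresh control. The median of the list was -1.11 in vitrification I, against -0.06 over all genes.

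In vitrification and in vitrification II, 0 of these 12 were called against fresh control in limma, with 1 lower in vitrification and 0 in vitrification II at an unadjusted p under 0.05. When vitrification II was set against vitrification I, 7 of the 12 were higher, beside 34.7% of all genes. CLPP was higher there by 2.41 ± 0.43 (adjusted p = 0.000787) and PHB2 by 1.84 ± 0.36 (adjusted p = 0.00129). The count was 4 without replicate 1 of vitrification II and 3 under either other scaling. CLPP had 65.03 ± 18.1 FPKM in vitrification II.

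Factors of the intermembrane space and outer membrane that take part in apoptosis, 10 genes tested, had 4 called lower in vitrification I against fresh control, beside 9.77% of all genes. Among the 4 was the protease HTRA2 at -1.84 (adjusted p = 0.0152, limma). The count was 0 without replicate 2 of fresh control, 1 without replicate 3 of fresh control and 2 without replicate 3 of vitrification I or under scaling outside the mitochondrial genome. Without replicate 2 or 3 of fresh control HTRA2 had adjusted p = 0.0574 and 0.0561. BCL2L1, whose product Bcl-xL protects the outer membrane, had 44.7 ± 6.36 FPKM in vitrification II and 3.42 ± 0.596 in vitrification I, a difference of 3.37 ± 0.37 (adjusted p = 3.35e-05) that passed under all 19 alternatives. It was higher in vitrification II than in fresh control, at 12.2 ± 5.03 FPKM, by 1.86 ± 0.37 (adjusted p = 0.00333), a call lost under quantile normalization alone (adjusted p = 0.0863). Other genes of this list were also higher in vitrification II than in vitrification I, with BAK1 at 1.96 and DIABLO at 1.87. BAK1 stood at only 0.343 ± 0.373 FPKM in vitrification I, against 4.50 ± 2.65 in vitrification II, so the pseudocount of 1 shapes its difference. In that comparison 6 of the 10 genes were higher and 1 lower, beside 34.7% of all genes called higher and 3.75% lower. The median of the list was 1.81 there, against 0.68 over all genes. The lower gene was AIFM1, given above, and the higher count stayed at 6 without any 1 library.

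CYCS, cytochrome c, had 387 ± 60.04 FPKM in vitrification II and 791 ± 262 in fresh control (-0.98 ± 0.34, adjusted p = 0.0474, limma), and the call was lost under 10 of 19 alternatives, with adjusted p up to 0.186, among them leaving out replicate 2 or 3 of fresh control, replicate 1 of vitrification I or any 1 library of vitrification II. It was the 1 gene of the apoptosis list called lower in vitrification II against fresh control, beside 2 called higher, and the higher count was 1 without replicate 2 or 3 of fresh control or replicate 1 of vitrification II. Of all genes, 1.09% were called lower and 24.6% higher in that comparison. In vitrification against fresh control limma called 0 of 10, with 2 of 10, both lower, at an unadjusted p under 0.05. All 10 had a negative sign there, beside 39.3% of all genes, with a median of -0.45 against 0.19 over all genes. This was not particular to the list. Negative signs there were had by 10 of 10 MICOS genes, 18 of 21 relay genes, 11 of 12 scaffolds and proteases and 12 of 14 translocases. In the stress response list 4 of 16 were negative, and of the mitochondrial genome 6 of 13.

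Genes of the integrated stress response to mitochondrial faults, 16 tested, gave few calls against fresh control. ATF5, a transcription factor of that response, had 2.16 ± 0.420 FPKM in vitrification and 0.198 ± 0.106 in fresh control (1.39 ± 0.30, adjusted p = 0.0408, limma), a level low enough that the pseudocount of 1 sets the size of the difference. That call was lost under 10 of 18 alternatives, with adjusted p up to 0.377, among them leaving out any 1 fresh library, replicate 2 of vitrification or replicate 2 or 3 of vitrification II. ATF4, the central factor of the response, had 128 ± 4.22 FPKM after vitrification, 46.9 ± 19.7 after vitrification I and 78.02 ± 19.6 after vitrification II, against 86.2 ± 56.6 in fresh control, and did not pass in any of these. DDIT3, known as CHOP, had 73.8 ± 19.6, 41.4 ± 15.5 and 117 ± 109 FPKM in the 3 vitrified groups, against 69.1 ± 38.7 in fresh control, and did not pass.

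SHMT2, a mitochondrial enzyme of one-carbon metabolism, was higher in vitrification II than in vitrification I, with 31.5 ± 7.96 FPKM against 5.44 ± 6.13 (2.77 ± 0.60, adjusted p = 0.00257, limma), and passed under all 19 alternatives. The stress response list had 5 of 16 higher and 0 lower in that comparison, near the 34.7% of all genes called higher, with 2 higher without replicate 3 of vitrification I or replicate 1 of vitrification II, 3 without replicate 3 of vitrification II and 8 without replicate 2 of vitrification I. Without replicate 1 of fresh control it had 6 higher and 2 lower, and under either other scaling 1 higher and 1 lower. Against fresh control it had 1 lower in vitrification I, beside 9.77% of all genes, and 3 higher in vitrification II, beside 24.6%. The count in vitrification II was 0 without its replicate 1, 1 without its replicate 3 or without replicate 1 or 3 of fresh control, and 2 without its replicate 2 or without replicate 2 of fresh control. That in vitrification I was 0 without replicate 2 or 3 of fresh control or without its own replicate 1 or 3, and 4, 3 and 2 without replicate 1 of fresh control, replicate 2 of vitrification I and replicate 3 of vitrification II.

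Of the translocases that carry proteins across both membranes, 14 genes tested, TOMM40, the pore of the outer membrane, had 31.9 ± 13.4 FPKM in vitrification II against 3.54 ± 1.32 in fresh control (2.80 ± 0.42, adjusted p = 0.00066, limma). Against 0.859 ± 0.237 FPKM in vitrification I the difference was 4.05 ± 0.42 (adjusted p = 2.74e-05), and both calls passed under all 19 alternatives. TOMM22, a receptor of the same complex, was higher in vitrification I than in fresh control, with 249 ± 135 FPKM against 59.9 ± 8.32 (1.88 ± 0.41, adjusted p = 0.00685), also under all 19. The list had 1 higher and 3 lower in vitrification I against fresh control, beside 8.85% and 9.77% of all genes. That lower count was 1 without replicate 2 or 3 of fresh control or replicate 1 or 3 of vitrification I. It was 2 without replicate 1 of fresh control. Against fresh control the list had 0 called in vitrification, with 2 of 14, both lower, at an unadjusted p under 0.05. In vitrification II it had 2 higher, beside 24.6% of all genes. The count in vitrification II was 1 without replicate 2 or 3 of fresh control, replicate 1 of vitrification I or any 1 library of vitrification II, and 4 without replicate 3 of vitrification I. Between vitrification II and vitrification I it had 7 of 14 higher and 1 lower, beside 34.7% of all genes called higher, with 3 higher without replicate 1 of vitrification II and 4 without its replicate 2. With values scaled to the total outside the mitochondrial genome the list had 1 higher and 3 lower, and after quantile normalization 2 higher and 4 lower. On the deposited scale the lower count was 2 without replicate 3 of vitrification I, and 0 without any other library than that or replicate 1 of fresh control.

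The genes of the mitochondrial genome went the other way. Of the 13, 11 were lower in vitrification II than in fresh control (limma), beside 1.09% of all genes. Against vitrification I 10 were lower in vitrification II, beside 3.75% of all genes. The medians were -1.24 and -1.21, against 0.62 and 0.68 over all genes. The first count was 6 without replicate 2 or 3 of fresh control and 5 without replicate 3 of vitrification II, and it was 0 under quantile normalization and 1 without a filter. The second was 6 without replicate 1 of vitrification I and 5 under quantile normalization. In vitrification I against fresh control 2 were higher, beside 8.85% of all genes. That count was 0 without replicate 2 or 3 of fresh control or replicate 1 or 3 of vitrification I. It was 1 without replicate 1 of fresh control or any 1 library of vitrification II. With values scaled to the total outside the mitochondrial genome 4 were higher, after quantile normalization 0 were higher and 1 lower, with array weights 2 were higher and 3 lower, and without a filter 0 were called. In vitrification limma called 0 of 13, with 1 of 13, higher, at an unadjusted p under 0.05.

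Patterns most like those of the members were sought among 4101 genes with a symbol and a mean of at least 5 FPKM, by Pearson correlation of log2(FPKM + 1) over the 11 libraries, which share 4 groups and a common scaling. For CHCHD10 the nearest were CYC1 at 0.970, RBPMS at 0.965, MFF at 0.920, TXN2 at 0.916 and POLE4 at 0.907. CYC1, cytochrome c1 of respiratory complex III, averaged 81.5 FPKM after vitrification, 62.7 after vitrification I and 133 after vitrification II, against 340.4 in fresh control. MFF, a receptor for mitochondrial fission, and TXN2, the mitochondrial thioredoxin, are also mitochondrial proteins. Since CHCHD10 was chosen for its lower level in vitrified libraries, genes near it by correlation share that pattern by construction. The share of mitochondrial proteins among the 4101 genes was not counted, so no excess of them can be read from these names or from those below. For CHCHD3 the nearest were ABHD11 at 0.954, DAP3 at 0.943, FH at 0.937, NDUFA11 at 0.925 and PRMT7 at 0.921, of which DAP3 is a mitochondrial ribosomal protein, FH the fumarase of the citric acid cycle and NDUFA11 a subunit of complex I.

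For CHCHD2 the nearest were TMSB10 at 0.974, RPLP1 and RACK1 at 0.965 each, RPLP0 at 0.963 and RPL6 at 0.962, of which all but TMSB10 are parts of the cytosolic ribosome. For CHCHD4 they were GLE1 at 0.954, GNPDA2 and MRPS23 at 0.953 each, LSM8 at 0.949 and CDC123 at 0.948. The 20 nearest genes held no name in common between members. Among the members themselves the correlation was highest between CHCHD10 and CHCHD3, at 0.820, and lowest between CHCHD10 and CHCHD4, at 0.404. CHCHD10 and CHCHD2 had 0.516. These are descriptions over 11 points.

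The members were listed as ENSSSCG00000010073 for CHCHD10, ENSSSCG00000007743 for CHCHD2, ENSSSCG00000016545 for CHCHD3 and ENSSSCG00000011604 for CHCHD4. In the RefSeq annotation of the Sscrofa11.1 assembly, CHCHD10 lies between MMP11 and C14H22orf15, CHCHD2 between NUPR2 and SUMF2, CHCHD3 between EXOC4 and PLXNA4, and CHCHD4 between TMEM43 and WNT7A. CHCHD4 overlaps a long noncoding RNA there, and whether fragments were counted by strand is not given in the sources used here, so its FPKM may hold fragments of that RNA. How fragments shared by the paralogs CHCHD10 and CHCHD2 were assigned is not given either.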

How the data were processed

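RNA was measured in 12 blastocyst libraries in 4 groups of 3 by the labels; 1 library of vitrification was not analysed here, which left 11. The values are FPKM as deposited by the authors, 1 per gene identifier and library. Tools listed in the submitters' processing notes, with no roles, are Cufflinks 2.2.1, TopHat2 2.0.13, FastQC and DESeq2, and the genome build is not given in the sources used here. Symbols came from the Ensembl and RefSeq (Sscrofa11.1) tables for 15347 of 31781 identifiers (48.3%), and CHCHD7 matched none. Sequencing depth is unknown, since the table holds no counts, so no detection limit is given. No 2 libraries were identical.

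The scale of analysis was log2(FPKM + 1), with no other scaling, for the 9411 genes with at least 1 FPKM in at least 3 libraries; all 4 members passed. A model of group means for the 11 libraries was made with limma 3.58.1 (trend) in R 4.3.3, two-sided, with Benjamini-Hochberg adjustment over all genes kept and a threshold of 0.05. The design had allowed for 11 or 12 libraries. The fit was tested on simulated data that, unlike these, held no shift of the typical gene between groups. Since no label says that replicates came from separate cultures or animals, p-values reflect the scatter of these libraries alone, which may be technical. No batch or date is labelled. Log2 differences are ± SE and FPKM means ± SD.

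The members and gene lists were chosen with earlier results of these data known. Genes named are the members, the other CHCHD genes, up to 4 called genes with the largest difference per list and comparison, and the 5 nearest patterns per member; IMMT, COX17, ATF4, DDIT3 and AIFM1 were added as central members of their lists after values were seen, and not all genes that the rule allows are named. Alternatives were a pseudocount of 0.1, no filter, a filter at 5 FPKM, 2 other scalings, a fit of 2 groups, a replicate block, array weights and leaving out each library.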

Additional observations from a re-analysis of the deposited data

Results flagged for a closer look

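Of the 24 differences of the 4 members, 2 were marked because a test of the difference between vitrified groups passed. CHCHD2 was higher in vitrification II than in vitrification I by 1.29 on the log2 scale (adjusted p = 0.0153, limma), with 3 of 3 libraries of vitrification II above all 3 of vitrification I. CHCHD4 was higher by 1.34 (adjusted p = 0.0293), again in 3 of 3 libraries. In this comparison 34.7% of all genes tested were called higher, and the median gene was itself higher by 0.68. How many of all genes separate these groups in the same way was not counted. The share of FPKM from the mitochondrial genome was 16.9% to 22.1% in vitrification II and 43.8% to 64.3% in vitrification I, and its part in these differences was not tested beyond the rescaled values of 0.65 for CHCHD2 and 0.73 for CHCHD4.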

How the results depend on the processing

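The 24 differences of the 4 members were recomputed under 19 alternatives each, 456 in all. Direction and call, or for values without a test the size within 1 SD, held in 429. CHCHD10 against fresh control kept its direction throughout, at -3.16 to -2.53 in vitrification, -3.12 to -2.44 in vitrification I and -2.46 to -1.71 in vitrification II. Scaling outside the mitochondrial genome moved vitrification I against fresh control to -0.70 for CHCHD2 and -0.47 for CHCHD3. Quantile normalization moved CHCHD2 there to -0.59 and CHCHD3 in vitrification II against fresh control to -0.88, and it turned CHCHD3 in vitrification II against vitrification I to -0.082. In that comparison CHCHD2 was not called without a filter (1.29, adjusted p = 0.0677, with more genes tested) or outside the mitochondrial genome (0.65), and it ranged over 0.94 to 1.55 with libraries left out. CHCHD4 was not called without a filter (1.34, adjusted p = 0.116), outside the mitochondrial genome (0.73), after quantile normalization (0.58), in a fit of the 2 groups (1.34, adjusted p = 0.0537) or with array weights (0.98), and ranged over 0.75 to 1.73. CHCHD3 ranged over 0.56 to 1.00 and passed at the upper end. In vitrification I against vitrification, CHCHD10 turned to 0.15 outside the mitochondrial genome and 0.024 after quantile normalization and ranged over -0.37 to 0.26, CHCHD4 turned to 0.072 with array weights and ranged over -0.67 to 0.31, and CHCHD3 ranged over -0.062 to 0.38. CHCHD2 in vitrification II against vitrification ranged over -0.023 to 0.83. The cause of these changes was not tested.

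Distinct list genes called in vitrification against fresh control, 1 as reported, were 0 with a pseudocount of 0.1, a filter at 5 FPKM, quantile normalization or 2 groups, 2 without a filter, 4 with array weights and 0 to 1 with libraries left out. In vitrification I against fresh control, 19 became 8 without a filter, 12 outside the mitochondrial genome, 10 in 2 groups, 37 with array weights and 6 to 23 with libraries left out (6 without replicate 3 and 7 without replicate 2 of fresh control, 9 without replicate 1 or 3 of vitrification I). In vitrification II against fresh control, 23 became 5 without a filter, 4 after quantile normalization, 46 with array weights and 10 to 26 with libraries left out (10 without replicate 2 or 3 of fresh control or replicate 1 of vitrification II, 11 without its replicate 3). In vitrification I against vitrification, 6 became 2 in 2 groups and 0 to 12 with libraries left out. In vitrification II against vitrification, 10 became 3 with a pseudocount of 0.1, 4 without a filter, 3 after quantile normalization and 0 to 17 with libraries left out. In vitrification II against vitrification I, 44 became 27 after quantile normalization and 26 to 49 with libraries left out (26 without replicate 1 of vitrification II). Over all genes, with libraries left out, calls ranged over 0 to 207 in vitrification, 832 to 2029 in vitrification I and 1017 to 2715 in vitrification II against fresh control, 5 to 822 in vitrification I and 10 to 928 in vitrification II against vitrification, and 2673 to 3865 in vitrification II against vitrification I. Under the other settings the ranges were, in the same order, 0 to 677, 906 to 3337, 676 to 4954, 176 to 921, 48 to 1060 and 2257 to 3847.

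Same-numbered libraries were not more alike than others: deviations of 15 same-numbered pairs had a median correlation of -0.0069, against 0.010 in 30 other pairs. Of the 15, 2 were over 0.1, and of the 30, 4 were. The deviations are from means of very small groups, which constrains these correlations, so the check cannot exclude a pairing. With a replicate block, list genes called were 0 in vitrification against fresh control and 2 in vitrification I against vitrification, where CHCHD10 turned to 0.13. All genes called were 55 and 296 there, against 129 and 530 without the block. CHCHD2 and CHCHD4 in vitrification II against vitrification I kept their calls (adjusted p = 0.0222 and 0.0200).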
